A study of Mus musculus with 6 samples.

Results

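MHC class II presentation was described through 7 mouse genes fixed by name: H2-Aa, H2-Ab1, H2-Eb1, Cd74, Ciita, H2-DMa and H2-DMb1. They were read in the distal jejunum of mice lacking Hnf4a in the intestinal epithelium and of control littermates. Each gene was taken from the probe sets that the platform annotation gives to that gene alone, and the brightest of these over all arrays stood for the gene. By this rule 6 of the 7 genes were measured, among 18193 genes in all. H2-DMb1 was not, because the 2 probe sets that name it also name its close relative H2-DMb2, and no level is given for it.

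The mutant group held 3 mice in which Hnf4a, a nuclear receptor gene, had been deleted with Cre recombinase under a 12.4-kb Villin promoter, which drives it in the gut epithelium. The control group held 3 littermates. The labels give all 6 animals the strain B6.129X1(FVB)-Hnf4atm1.1Gonz/J, which carries the floxed Hnf4a allele, and do not state whether the control mice carried Cre. All were 7 months old, were anaesthetised with ketamine and xylazine before they were killed, and had 1 array each. The labels describe whole jejunum biopsies, so the epithelium, the lamina propria with its immune cells and the muscle wall were read together, and a change in the number of cells of a type and a change in RNA per cell cannot be told apart.

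MHC class II molecules hold peptides cut from proteins in endosomes and show them to CD4+ T cells. Dendritic cells, macrophages and B cells carry them at all times, and villus enterocytes of the small intestine carry them too and make more of them when exposed to interferon gamma. The master switch is the coactivator CIITA, which does not bind DNA itself but docks on factors bound to the X and Y boxes in front of class II genes. H2-Aa and H2-Ab1 encode the alpha and beta chains of the I-A molecule and H2-Eb1 the beta chain of the I-E molecule. Cd74 encodes the invariant chain that guides them to endosomes and blocks the groove on the way. H2-DMa and H2-DMb1 encode the chains of H2-M, which exchanges the last fragment of the invariant chain for a peptide.

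The X and Y boxes are the part of these promoters through which the genes are switched on together, so the start regions of 3 members are shown. Each is 250 bases before and 50 after the annotated start, 5′ to 3′ on the gene's own strand, from RefSeq (GRCm38.p6). Capitals mark a core X box (AACNNATG), a core Y box (GATTGG, also as its reverse complement) and the cyclic AMP response palindrome (TGACGTCA). The letters of the core X box were settled after these sequences had been read, and a longer form was searched first. The H2-Aa window lies at chr17:34287774-34288073 on the minus strand, the H2-Eb1 window at chr17:34305617-34305916 on the plus strand and the H2-DMb1 window at chr17:34152941-34153240 on the plus strand.
H2-Aa: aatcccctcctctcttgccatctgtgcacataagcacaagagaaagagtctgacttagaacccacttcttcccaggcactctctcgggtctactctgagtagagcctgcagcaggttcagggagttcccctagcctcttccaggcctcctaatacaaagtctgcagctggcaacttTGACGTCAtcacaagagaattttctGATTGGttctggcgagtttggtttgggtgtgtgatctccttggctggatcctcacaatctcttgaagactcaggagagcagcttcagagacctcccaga
H2-Eb1: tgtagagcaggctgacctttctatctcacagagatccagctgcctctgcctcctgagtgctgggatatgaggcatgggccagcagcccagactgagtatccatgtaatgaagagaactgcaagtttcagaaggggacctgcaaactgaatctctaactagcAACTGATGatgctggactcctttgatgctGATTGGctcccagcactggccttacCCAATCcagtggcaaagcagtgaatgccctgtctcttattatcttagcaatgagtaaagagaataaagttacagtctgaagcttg
H2-DMb1: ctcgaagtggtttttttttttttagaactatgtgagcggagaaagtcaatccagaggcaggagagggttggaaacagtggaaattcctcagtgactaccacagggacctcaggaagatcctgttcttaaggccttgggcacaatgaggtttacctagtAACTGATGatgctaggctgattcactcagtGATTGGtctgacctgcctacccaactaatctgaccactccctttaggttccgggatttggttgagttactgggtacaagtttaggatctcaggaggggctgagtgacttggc

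In H2-Eb1 the core X box began 89 bases before the start and was followed, after 21 bases, by a Y box on the same strand, with a further Y box in reverse nearer the start. H2-DMb1 had the same order with 22 bases between the boxes. In H2-Aa no run matched these core X letters, and the palindrome stood 17 bases before the Y box. The search was for fixed letters, so it would miss an X box of other letters and does not show that H2-Aa lacks one. Start regions were listed for 4 of the 7 members, and none of the 3 motifs was found in the first of the 2 windows of H2-DMa, while the second held a Y box far upstream. Over all 32851 windows of this length, searched on both strands, 8.86% held the core X box, 16.1% the Y box and 1.79% the palindrome. A core X box followed by a Y box 10 to 30 bases on, both on the gene's strand, was found in 17 windows (0.0517%), of which 5 were those of the class II genes H2-DMb1, H2-DMb2, H2-Ob, H2-Eb1 and H2-Eb2. The core X letters were settled after the sequences above had been read, so these counts do not measure how particular the pair is to class II genes. A match is a run of letters and shows no binding.

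The values are the authors' log2 signals, 1 per probe set and array, so a difference of 1 is a factor of 2. Array medians lay between 3.93 and 3.98. Hnf4a was the check of the labels: it read 8.83, 8.83 and 9.82 in mutants 1, 2 and 3, against 11.82, 11.76 and 11.57 in controls 1, 2 and 3, and fell by 2.56 ± 0.25 SE (limma adjusted p = 0.00756), a call lost without control 2 (adjusted p = 0.0506). Two-sided tests used limma across all 18193 genes, with Benjamini-Hochberg adjustment and a threshold of 0.05. Of all genes, 0.528% passed, 0.198% as higher in mutants and 0.33% as lower. Arrays also differed outside the class II genes. Control 3 carried pancreatic acinar transcripts, with a mean log2 signal of 7.80 over 6 acinar markers against 3.83 to 4.06 in the other arrays, and mutant 2 carried fat transcripts, with a mean of 8.05 over 4 fat markers against 6.05 to 6.49. Signals of Y-linked genes stood out in control 1 and mutant 3.

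All 6 measured class II genes had a higher mean in mutants than in controls, by 0.57 to 0.96 on the log2 scale or 1.49-fold to 1.94-fold, but none passed the test. Of all genes, 46.7% had a higher mean in mutants. All 6 differences were above 0.5, as were those of 2.97% of all genes. The median difference was 0.82, where that of all genes was -0.01. At an unadjusted limma p under 0.05 there were 2 of the 6, H2-Eb1 and H2-DMa, where 5.24% of all genes were higher at that level. The controls were uneven. Control 1 had as much class II signal as the mutants, while controls 2 and 3 had less, and in 5 of the 6 genes the groups overlapped. All 3 mutants lay above all 3 controls in 1 member, H2-Eb1, as they did in 6.93% of all genes.

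**Figure D1:**
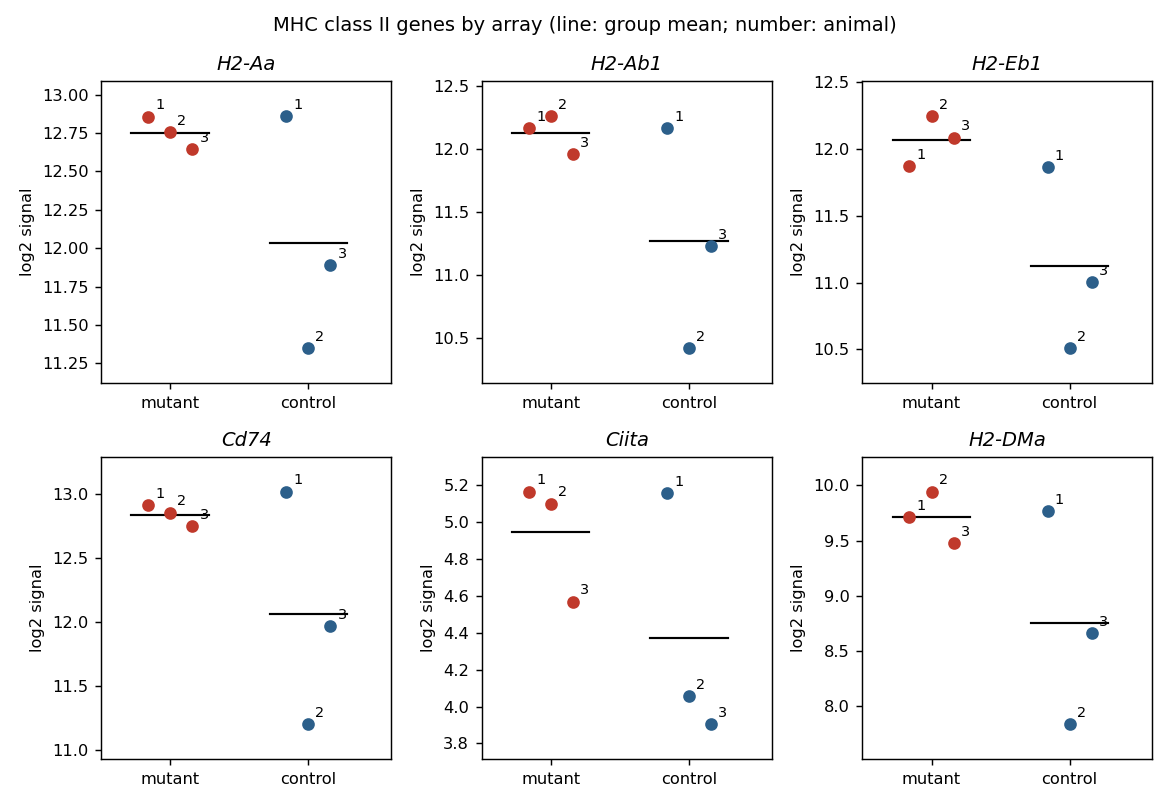
Log2 signal of the 6 measured MHC class II genes in each mouse (vertical axes, one scale per panel), with mutants in red, controls in blue and a line at each group mean. In each panel control 1 stands at the height of the mutants and controls 2 and 3 lie lower.

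The chains of the I-A molecule had similar profiles over the arrays. H2-Aa read 12.86, 12.75 and 12.65 in mutants 1, 2 and 3, against 12.86, 11.35 and 11.89 in controls 1, 2 and 3. The highest control thus matched the highest mutant, and both other controls lay below every mutant. The difference was 0.72 ± 0.33 SE (95% interval -0.03 to 1.47, adjusted p = 0.439). H2-Ab1 read 12.17, 12.26 and 11.96 in mutants, against 12.17, 10.42 and 11.23 in controls. Control 1 again lay among the mutants, and control 2 was lowest. The difference was 0.86 ± 0.37 SE (95% interval -0.0015 to 1.71, adjusted p = 0.414).

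H2-Eb1, the I-E beta chain, was the member whose groups were apart. It read 11.87, 12.25 and 12.09 in mutants, against 11.86, 10.51 and 11.004 in controls. Mutant 1 and control 1 were nearly equal, so that the gap between the groups was much smaller than the range of the controls, 1.36. The difference was 0.94 ± 0.30 SE, or 1.92-fold (95% interval 0.24 to 1.64 on the log2 scale, unadjusted p = 0.0144, adjusted p = 0.266). This was the smallest p among the members. The partner chain gene of H2-Eb1, H2-Ea, is annotated as a transcribed pseudogene in the C57BL/6J reference. It read 6.23, 5.93 and 6.16 in mutants, against 5.999, 5.88 and 6.03 in controls, so its controls lay within a narrow range.

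Cd74 and H2-DMa, which act on class II molecules after they are made, had the same order of controls, with control 1 highest and control 2 lowest. Cd74, the invariant chain, read 12.91, 12.85 and 12.75 in mutants, against 13.02, 11.20 and 11.97 in controls, so control 1 was the highest of all 6 arrays. The difference was 0.78 ± 0.38 SE (95% interval -0.10 to 1.66, adjusted p = 0.481). H2-DMa, the alpha chain of the peptide exchanger H2-M, read 9.71, 9.94 and 9.48 in mutants, against 9.77, 7.84 and 8.66 in controls. Its controls spanned 1.93, the widest range of the 6 members, where its mutants spanned 0.47. The difference was 0.96 ± 0.41 SE (95% interval 0.0014 to 1.91, unadjusted p = 0.0497, adjusted p = 0.412).

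Ciita, the coactivator above the other genes, was dim. It read 5.17, 5.10 and 4.57 in mutants, against 5.16, 4.06 and 3.91 in controls. Control 1 matched the 2 highest mutants, and the reading of control 3 lay just under the median of that array, 3.95. The difference was 0.57 ± 0.32 SE (95% interval -0.17 to 1.31, adjusted p = 0.549). On this probe set its lowest array was control 3, not control 2 as in the other 5 members. On each of its dimmer probe sets control 2 was lowest, at 3.89 and 2.78, against 4.19 and 3.29 in control 3.

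The spread of the members was uneven between the groups. The SD over the 3 controls lay between 0.69 and 0.97, and for each of the 6 genes it was larger than in at least 99.4% of all genes, whose median was 0.12. The SD over the 3 mutants lay between 0.08 and 0.33, and it was larger than in 19.8% of genes for Cd74 and in 87.5% for Ciita, with the others between. Whether the spread differs between genotypes was not tested. Over the 6 arrays Pearson's r between members ranged from 0.825 to 0.998 over their 15 pairs, with a median of 0.964. This describes arrays that share animals and tissue.

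Leaving out control 1 made the differences larger and leaving out control 2 made them smaller. Without control 1 they ranged from 0.97 for Ciita to 1.46 for H2-DMa, and mutants lay above both other controls in all 6 members, as they did in 12.6% of all genes. None passed even then, with H2-Eb1 nearest (limma adjusted p = 0.0522) and the others between 0.0681 and 0.128. Without control 2 the differences ranged from 0.35 for Cd74 to 0.63 for H2-Eb1, with adjusted p between 0.539 and 0.822. Without control 3 that of Ciita was 0.34, while the others stayed between 0.65 and 0.91. Without any 1 mutant they lay between 0.46 and 1.07.

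**Figure D2:**
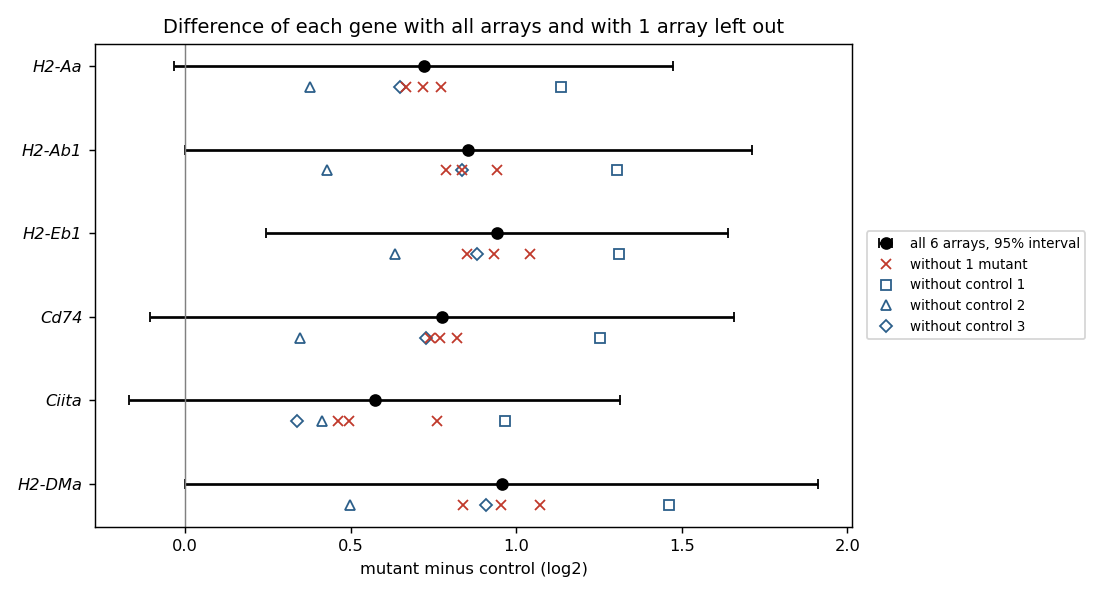
Mutant minus control difference on the log2 scale (horizontal axis) for each gene, with the 95% interval of the fit to all 6 arrays (black) and, under it, the estimate with 1 array left out. Estimates without control 1 lie farthest right and reach 1.46, and those without control 2 or, for Ciita, without control 3 lie farthest left.

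Other probe sets of the members gave the same pattern with 1 exception. The 6 genes had 14 probe sets in all, and of the 8 that were not the brightest 7 were higher in mutants, by 0.31 to 1.504, and none passed over all probe sets. Control 1 was the highest control in all 8. For H2-Aa the widest difference was 1.504 ± 0.49 SE, on a probe set that read 10.56, 11.39 and 10.67 in mutants, against 10.52, 8.36 and 9.24 in controls. All 3 mutants lay above all 3 controls there, by a narrow gap to control 1. The exception was the dimmer probe set of H2-DMa, which read 5.71, 5.84 and 5.64 in mutants, against 6.13, 5.57 and 6.01 in controls, a difference of -0.17 ± 0.16 SE. Some probe sets are of types that the array maker marks as able to bind related transcripts (suffixes x and s). These are the probe sets of H2-Aa, the brightest and the dimmest of H2-Ab1, and the dimmer one of H2-DMa. The share of signal from related genes was not tested.

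The sex-linked and RNA quality signals of the arrays were set beside the members. The Y-linked translation factor gene Eif2s3y read 2.65, 2.58 and 6.53 in mutants, against 6.85, 2.57 and 2.75 in controls. The arrays with Eif2s3y signal, mutant 3 and control 1, were both high in class II signal. Of the 4 arrays without it mutants 1 and 2 were high in class II signal and controls 2 and 3 were low. With Y-linked expression as a covariate the differences were 0.58 to 0.96, and 0 of 6 members passed (limma, smallest adjusted p = 0.162). Each group held an array with this signal, so the covariate was nearly balanced between the groups and could hardly move the differences. Control 1 was the only control with Eif2s3y signal, so sex and the high class II level of that animal cannot be told apart. The part of sex in the class II levels was not tested. RNA integrity, read as the 3′ minus 5′ actin control, was 0.73, 0.42 and 0.46 in mutants, against 0.39, 0.66 and 0.44 in controls. The same difference for Gapdh was 0.71, 0.29 and 0.58 in mutants, against 0.45, 0.48 and 0.38 in controls. The part of RNA integrity in the class II levels was not tested.

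The class II genes outside the member list were read in the same way. H2-Oa, H2-Ob, H2-DMb2, H2-Eb2 and H2-Ea had a median difference of 0.20, or 0.32 without control 1 and 0.09 without control 2, and 0 of 5 passed (limma, 0 at an unadjusted p under 0.05). H2-Oa and H2-Ob encode H2-O, an inhibitor of H2-M found mainly in B cells. H2-Oa read 4.92, 4.98 and 4.89 in mutants, against 5.32, 4.20 and 4.46 in controls, so control 1 was above every mutant. H2-DMb2, a beta chain gene of H2-M, read 6.97, 6.80 and 6.92 in mutants, against 6.95, 6.25 and 6.05 in controls. Its difference was 0.48 ± 0.22 SE (adjusted p = 0.435), and it showed the members' pattern of control 1 with the mutants.

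Factors that bind class II promoters were measured in full. Of Rfx5, Rfxap and Rfxank, the parts of the X box factor RFX, Nfya, Nfyb and Nfyc, the parts of the Y box factor NF-Y, and Creb1, 0 of 7 passed, with a median of -0.04 and differences from -0.19 to 0.24 (limma, 1 at an unadjusted p under 0.05, Rfxap). Their mean log2 signal was 7.18 in each mutant, against 7.06 to 7.20 in the controls. Rfxap differed by 0.22 ± 0.09 SE (adjusted p = 0.375) and Rfx5 by -0.15 ± 0.11 SE. Among all genes 5.24% were higher at an unadjusted limma p under 0.05.

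Genes of the interferon gamma pathway, which induces Ciita, had differences on both sides of 0. Of 9 measured, 0 passed, and the median was 0.02 (-0.09 without mutant 3 and 0.21 without mutant 1). The receptor chain gene Ifngr2 read 7.27, 7.91 and 7.27 in mutants, against 8.12, 8.04 and 8.04 in controls, a difference of -0.58 ± 0.18 SE (adjusted p = 0.238), and the kinase gene Jak2 differed by -0.37 ± 0.15 SE. Irf8, a transcription factor gene of myeloid cells and a target of interferon gamma, read 9.57, 9.95 and 9.83 in mutants, against 9.93, 9.09 and 9.08 in controls. It thus had control 1 among the mutants as the members did, and differed by 0.42 ± 0.23 SE (adjusted p = 0.543). Socs1, an inhibitor gene of the pathway, differed by 0.52 ± 0.25 SE (adjusted p = 0.470). At an unadjusted limma p under 0.05 there were 2, both lower in mutants, where 6.85% of all genes were lower at that level.

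Endosomal proteases and other processing genes split in both directions. Of 13 measured, 0 passed, with a median of 0.00. At an unadjusted limma p under 0.05 there were 2 higher and 4 lower, where 5.24% of all genes were higher and 6.85% were lower. The aminopeptidase cathepsin gene Ctsh read 8.53, 8.61 and 8.31 in mutants, against 9.08, 9.07 and 9.05 in controls. Its mutants lay below all controls and control 1 stood with the other controls, unlike the members, at a difference of -0.59 ± 0.11 SE (adjusted p = 0.0747). The cathepsin E gene Ctse differed by -1.23 ± 0.26 SE (adjusted p = 0.101). Ctss, the cathepsin that trims the invariant chain in antigen-presenting cells and was named here after its values were seen, read 11.53, 11.71 and 11.42 in mutants, against 11.47, 11.54 and 11.46 in controls, a difference of 0.06 ± 0.11 SE. March8, a ubiquitin ligase gene whose product removes class II from the cell surface, differed by -0.31 ± 0.10 SE (adjusted p = 0.276), and the cathepsin Z gene Ctsz by -0.35 ± 0.12 SE (adjusted p = 0.283). When each gene's probe sets were averaged, 1 gene of the list passed, as lower in mutants.

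**Figure D3:**
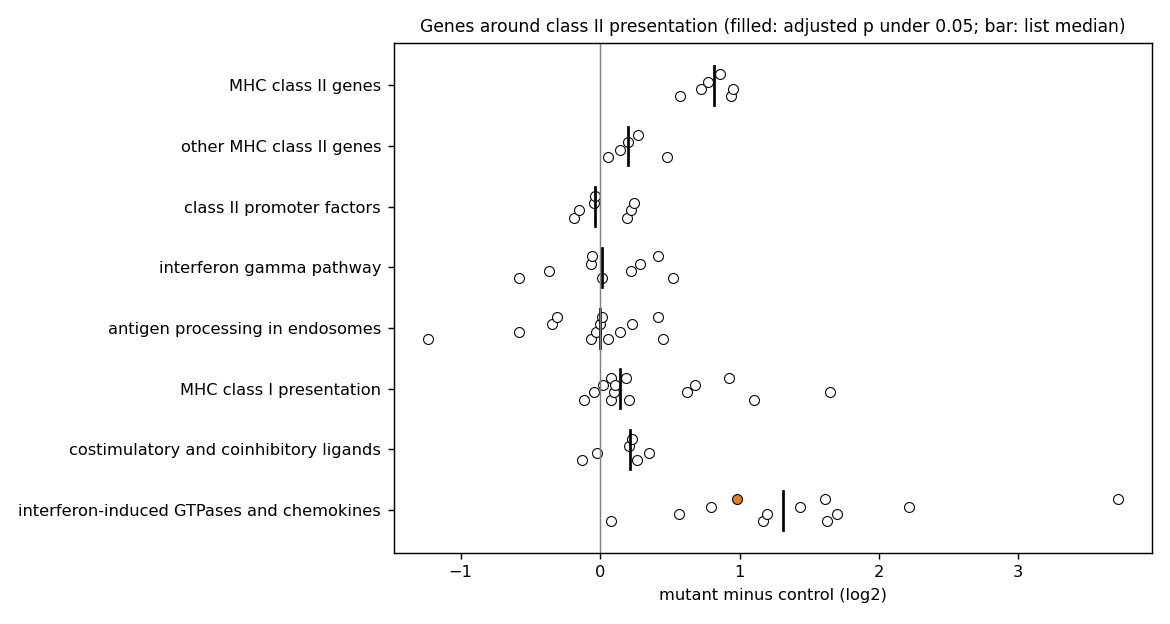
Mutant minus control difference on the log2 scale (horizontal axis) of each measured gene on 8 lists around class II presentation, with a bar at the list median and filled points for limma adjusted p under 0.05. The class II genes lie between 0.57 and 0.96 with none filled, and the single filled point, Gbp7, is among the interferon-induced genes.

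MHC class I presentation, which loads peptides from the cytosol, divided by gene. Of 14 measured genes 0 passed, and the median was 0.14 (0.30 without control 1 and 0.06 without control 2). At an unadjusted limma p under 0.05 there were 4, all higher, where 5.24% of all genes were higher at that level. The peptide transporter gene Tap1 read 8.71, 8.73 and 8.62 in mutants, against 8.79, 6.99 and 7.51 in controls, the members' pattern. It differed by 0.93 ± 0.39 SE (adjusted p = 0.390), the immunoproteasome gene Psmb9 by 1.10 ± 0.35 SE and Nlrc5, the CIITA relative that drives class I genes, by 1.65 ± 0.47 SE (adjusted p = 0.216). The other transporter gene, Tap2, differed by 0.62 ± 0.23 SE (adjusted p = 0.329). The heavy chain gene H2-K1 and the light chain gene B2m, named here after their values were seen, differed by 0.08 ± 0.15 SE and 0.02 ± 0.13 SE. Without control 1, 1 gene of the list passed, and likewise 1 with the Y-linked covariate.

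Interferon-induced GTPases and chemokines were the list with the widest differences and the 1 call. Of 12 measured genes 12 were higher in mutants, as were 46.7% of all genes, and 1 passed. The median was 1.31 (1.74 without control 1 and 1.04 without control 2). At an unadjusted limma p under 0.05 there were 11, all higher, where 5.24% of all genes were higher at that level. All 3 mutants lay above all 3 controls in 7 of the 12, as they did in 6.93% of all genes. The controls were uneven here too. Control 1 was the highest control in 12 of the 12 and reached or passed the lowest mutant in 5. The list mean was 7.37, 8.22 and 8.18 in mutants 1, 2 and 3, against 7.45, 5.82 and 6.23 in controls 1, 2 and 3. Gbp7, a guanylate-binding protein gene, read 7.23, 7.43 and 7.54 in mutants, against 6.59, 6.30 and 6.37 in controls. It rose by 0.98 ± 0.12 SE (limma adjusted p = 0.0218). For Gbp7 control 1 stood near the other controls, apart from the mutants, which it did not do in the class II genes or in the list mean. The call was lost without control 2 (adjusted p = 0.09996), control 3 (adjusted p = 0.125) or mutant 2 (adjusted p = 0.0830), with a floor (adjusted p = 0.107), with its probe sets averaged (adjusted p = 0.0533) and with the second brightest (adjusted p = 0.116). Gbp6 read 6.87, 7.68 and 7.59 in mutants, against 6.45, 5.11 and 5.47 in controls, with a difference of 1.70 ± 0.35 SE (adjusted p = 0.0927). Gbp3 differed by 0.56 ± 0.12 SE (adjusted p = 0.107) and Iigp1, an immunity-related GTPase gene, by 1.62 ± 0.39 SE (adjusted p = 0.149). The number of genes of the list past the test was 6 without control 1, 2 without mutant 1 and 5 with the Y-linked covariate. It was 0 without control 2, control 3 or mutant 2, and with the floor, averaged probe sets or the second brightest probe set.

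Costimulatory ligands, which a presenting cell needs beside class II to activate a T cell, and coinhibitory ligands were read as well. Of 6 measured 0 passed, with a median of 0.22 (0.14 without control 2 and 0.09 without mutant 2) and 1 at an unadjusted limma p under 0.05, Cd86. Cd86 read 4.87, 5.43 and 5.05 in mutants, against 4.68, 4.81 and 4.82 in controls, a difference of 0.35 ± 0.15 SE (adjusted p = 0.405). Here control 1 was the lowest array. The costimulatory ligand gene Icosl differed by 0.23 ± 0.10 SE (adjusted p = 0.436), Cd40 by 0.20 ± 0.13 SE and Cd80 by -0.13 ± 0.13 SE. Among all genes 5.24% were higher at an unadjusted limma p under 0.05.

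Markers of cells that carry class II were read beside the members, and their part in the result was not tested. Dendritic cell markers had a mean log2 signal of 4.26 to 4.51 over the mutants and 4.23 to 4.42 over the controls, with 0 of 10 past the test (limma, 2 higher at an unadjusted p under 0.05), a median difference of 0.08 (0.02 without mutant 2) and 3 markers under the median probe set of every array. Macrophage markers had a mean of 7.20 to 7.66 over the mutants and 7.27 to 7.35 over the controls, with 0 of 12 past the test (limma, 4 higher and 2 lower at an unadjusted p under 0.05) and a median of 0.29 (0.08 without mutant 2). Of all genes, 5.24% were higher and 6.85% were lower at that unadjusted level. Control 1 was the highest control in 8 of the 10 dendritic cell markers and in 5 of the 12 macrophage markers. Of the dendritic cell markers, Xcr1 differed by 0.37 ± 0.11 SE (adjusted p = 0.237), Batf3 by 0.45 ± 0.17 SE, Cd209a by 0.20 ± 0.16 SE and Flt3 by -0.16 ± 0.10 SE. The macrophage markers with the smallest p went both ways. Mertk, a receptor gene for the uptake of dying cells, read 7.74, 7.81 and 6.79 in mutants, against 8.35, 8.61 and 8.70 in controls, a difference of -1.10 ± 0.26 SE (adjusted p = 0.138). The lysozyme gene Lyz2 differed by -0.35 ± 0.11 SE (adjusted p = 0.259), and Cd14, a co-receptor gene for bacterial lipopolysaccharide, by 0.60 ± 0.19 SE (adjusted p = 0.265). With the Y-linked covariate 1 macrophage marker passed, as lower in mutants. Csf1r, the receptor gene for macrophage growth factors, read 9.93, 10.01 and 9.56 in mutants, against 9.42, 9.40 and 9.49 in controls, a difference of 0.40 ± 0.13 SE (adjusted p = 0.280).

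B cell markers had a mean of 4.59 to 4.75 over the mutants, against 5.03, 4.02 and 3.85 in controls 1, 2 and 3. Control 1 was above controls 2 and 3 in 9 of 9 of them and above the mutants in the mean. The B cell surface gene Ms4a1 read 4.47, 4.99 and 5.63 in mutants, against 5.96, 3.13 and 2.58 in controls, and Cd79b read 6.08, 6.11 and 6.10 in mutants, against 6.63, 5.08 and 4.87 in controls. Cd37 differed by 0.47 ± 0.27 SE and Fcer2a by 0.23 ± 0.15 SE. Of the 9 markers 8 were higher in mutants, as were 46.7% of all genes, and 1 was lower. Of these 9 markers 0 passed (limma, 0 at an unadjusted p under 0.05), the median was 0.25 (0.45 without control 1), and 3 lay under the median probe set of every array. Without control 1, 1 of them passed. Follicle markers had a mean of 5.09, 4.99 and 5.06 in mutants, against 5.15, 4.37 and 4.49 in controls. Cxcl13, a chemokine gene of lymphoid follicles, read 7.04, 7.25 and 7.19 in mutants, against 6.68, 5.67 and 5.06 in controls. It differed by 1.36 ± 0.35 SE (adjusted p = 0.170), and of the 6 follicle markers 0 passed (limma, 2 higher at an unadjusted p under 0.05), or 2 without control 1, with a median of 0.15 (0.37 without control 1 and -0.01 without control 2). Among all genes 5.24% were higher at that unadjusted level. Spib differed by 0.96 ± 0.26 SE (adjusted p = 0.193), Madcam1 by 0.24 ± 0.19 SE and Gp2 by -0.32 ± 0.16 SE.

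T cell and intraepithelial lymphocyte markers had a mean of 6.67, 7.28 and 6.88 in mutants, against 6.82, 5.55 and 6.17 in controls. The list is not limited to the CD4+ T cells that read class II. As in the class II genes, control 1 lay among the mutants and control 2 was lowest. All 12 were higher in mutants, as were 46.7% of all genes, 0 passed, and the median was 0.78 (0.32 without control 2). At an unadjusted limma p under 0.05 there were 7, where 5.24% of all genes were higher at that level. Ccl5, a chemokine gene of cytotoxic lymphocytes, read 10.20, 11.04 and 10.33 in mutants, against 10.15, 7.96 and 8.94 in controls, and differed by 1.51 ± 0.49 SE (adjusted p = 0.270). Itgae, the integrin gene that holds lymphocytes in the epithelium, differed by 0.87 ± 0.21 SE (adjusted p = 0.154), the T cell receptor complex gene Cd3d by 0.86 ± 0.30 SE and Cd8b1 by 0.45 ± 0.18 SE. Cd4, named here after its values were seen, had the smallest difference of the list, 0.14 ± 0.13 SE (limma adjusted p = 0.729). Plasma cell markers had means of 8.38, 8.08 and 8.59 in mutants, against 8.10, 8.13 and 7.73 in controls, with 0 of 5 past the test (limma, 2 higher at an unadjusted p under 0.05) and a median of 0.31 (0.53 without mutant 2). In mutants 4 of the 5 were higher, as were 46.7% of all genes, and 1 was lower. Of these, Sdc1, which epithelial cells express too, differed by 0.87 ± 0.17 SE (adjusted p = 0.0798), Mzb1 by 0.49 ± 0.25 SE, Jchain by 0.31 ± 0.24 SE and Tnfrsf17 by 0.28 ± 0.10 SE, and 1 of the list passed with the Y-linked covariate.

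Epithelial markers had a mean of 11.94 to 12.25 over the mutants and 11.91 to 11.94 over the controls, with 0 of 8 past the test (limma, 2 higher at an unadjusted p under 0.05) and a median of 0.04 (-0.06 without mutant 3). Those of smooth muscle had a mean of 10.40 to 10.57 over the mutants and 10.18 to 10.66 over the controls, with 0 of 6 past the test (limma, 0 at an unadjusted p under 0.05). Among all genes 5.24% were higher at that unadjusted level. The keratin gene Krt18 read 11.08, 11.16 and 12.00 in mutants, against 10.76, 10.80 and 10.64 in controls, a difference of 0.68 ± 0.23 SE (adjusted p = 0.284). Cdh1, the E-cadherin gene, differed by 0.33 ± 0.10 SE (adjusted p = 0.249) and Cdx2 by 0.36 ± 0.20 SE. Of the 8 epithelial markers 5 were higher in mutants, as were 46.7% of all genes. Villin, a brush border gene read here as Vil1, differed by -0.14 ± 0.10 SE and was 12.62, 12.67 and 12.54 in mutants, against 12.85, 12.66 and 12.74 in controls. Controls 2 and 3, low in class II signal, had epithelial means of 11.94 and 11.91, and control 1 had 11.91.

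**Figure D4:**
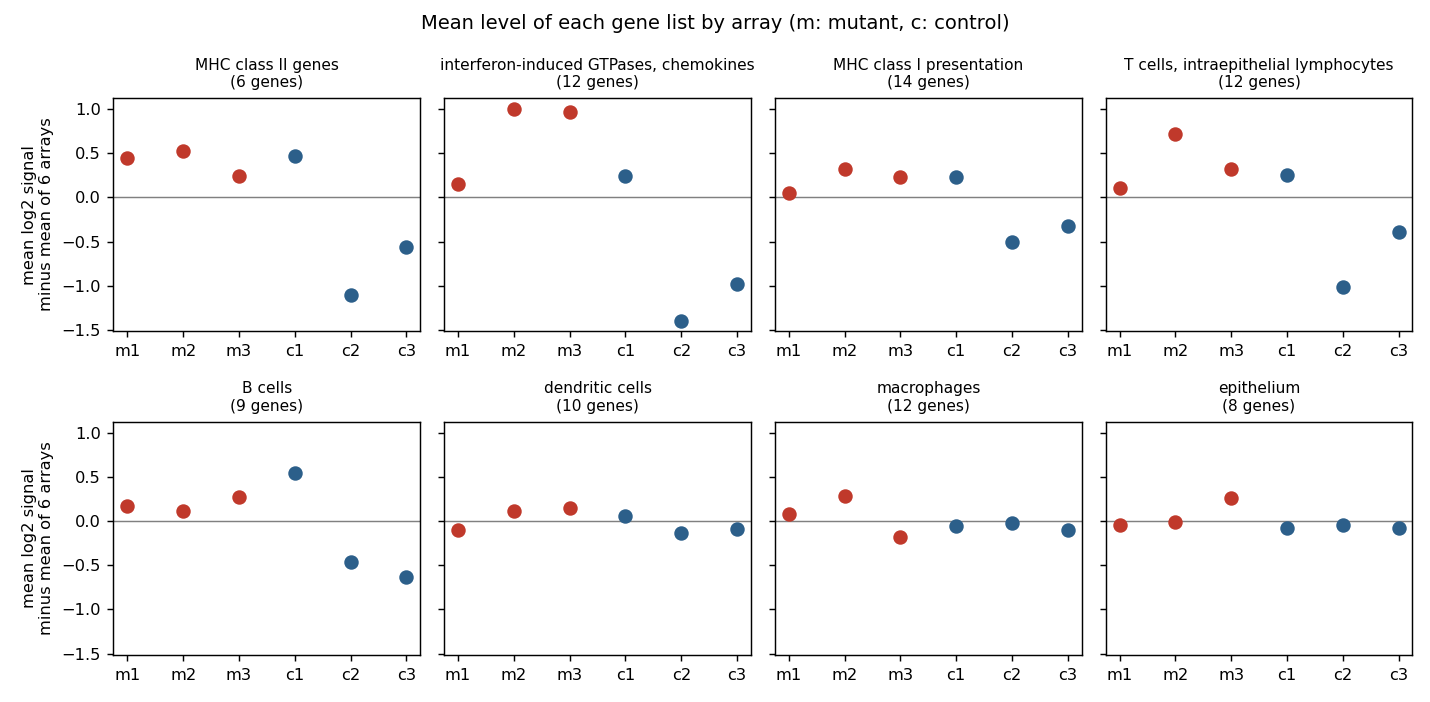
Mean log2 signal of 8 gene lists in each array, minus the mean of that list over the 6 arrays (vertical axis, shared by all panels), with mutants in red (m1 to m3) and controls in blue (c1 to c3). In the class II, interferon-induced, class I, T cell and B cell panels control 1 lies above the lowest mutant and controls 2 and 3 lie lower, and the dendritic cell, macrophage and epithelial panels span less.

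The genes whose values followed the members most closely over the 6 arrays were Tap1, Batf2, Trav9d-3, Zc3h12a, Arpp19, Sh3bgrl3, Rnf25 and Ubxn8. Likeness was Pearson's r with the mean of the 6 members after each had been scaled, among 9091 genes brighter than the median gene, and ranged from 0.973 to 0.995. Batf2, a transcription factor gene induced by interferon gamma, read 8.10, 8.13 and 8.10 in mutants, against 8.13, 6.95 and 7.36 in controls. Trav9d-3, a T cell receptor alpha segment, read 6.79, 7.09 and 6.81 in mutants, against 6.82, 5.27 and 5.90 in controls. Arpp19, a phosphatase regulator gene, spanned no more than 0.14 over the controls, so that a high r here did not mean a large difference. None of the 8 passed the test.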

How the data were processed

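Biotin-labelled total RNA of 6 mice was read on expression arrays, 1 per animal, and p-values rest on the spread between animals. The authors deposited log2 signals for 45101 probe sets. That they are log2 was read from their range, 1.80 to 14.5. No source used here names the background correction, summarisation or normalisation. After 64 control probe sets were left out, 34945 had 1 gene symbol in the platform annotation, 932 several and 9160 none, and the brightest with 1 symbol stood for each of 18193 genes. Values were used as deposited, and the number of arrays limits the precision.

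Groups were compared with limma 3.58.1 (lmFit, eBayes) in R 4.3.3, group as the only term. The procedure was tested on simulated data. The members, lists and tests were chosen with earlier results of these data known. Named were Hnf4a, the members, the 4 genes with the smallest p of each list (not those of smooth muscle, fat, acinar cells or, beyond Eif2s3y, the sex-linked list, given as list values only) and the 8 most like the members; others are marked. Alternatives covered normalisation, a floor, a filter, probe set choice, the variance model, array weights (statmod 1.5.0), the replicate number as a block, Y-linked expression and left-out arrays. The labels do not say that replicate numbers mark litters. By deviations from the group mean, same-numbered arrays were each other's best match for replicate 1 but not for 2 or 3. Whether the numbers pair the arrays was thus not settled.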

Additional observations from a re-analysis of the deposited data

How the results depend on the processing

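Of 113 member differences under 19 alternatives, 112 kept the sign, and 1 passed the test. The sign turned for H2-DMa with the second brightest probe set (-0.17). The pass was Ciita without control 1 and mutant 3 together (1.15, limma adjusted p = 0.0350), which made the count of members past the test 1. This alternative was chosen after seeing the data and leaves 2 arrays a group. Mutants lay above controls in 6 members there, as they did without control 1 alone. The share of all genes so separated was not counted for this alternative. With 1 array left out the count past the test stayed at 0, the count of members with mutants above controls ran from 1 to 6, and the differences ran from 0.38 to 1.13 for H2-Aa, 0.43 to 1.30 for H2-Ab1, 0.63 to 1.31 for H2-Eb1, 0.35 to 1.25 for Cd74, 0.34 to 0.97 for Ciita and 0.50 to 1.46 for H2-DMa, with a median over the members from 0.42 to 1.28. The count of all genes past the test, 96, was 2 with a floor, 150 with array weights, 196 with the Y-linked covariate, 4 without control 3 and mutant 2 together, and from 22 to 96 with 1 array left out. The cause was not tested. The replicate block gave 62 genes and 0 members (limma adjusted p 0.301 to 0.379, unadjusted p 0.0211 to 0.0436). Gbp7 was no longer called under the block (adjusted p = 0.0724), nor with either pair of arrays left out (adjusted p = 0.0511 and 0.363). Hnf4a was not called with the floor (adjusted p = 0.114) or when control 3 and mutant 2 were both left out (adjusted p = 0.205). Deviations of same-numbered arrays correlated at 0.07, 0.07 and -0.02. Ciita was not tested among genes above the median gene, since it lies below it.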
